A study of Mus musculus with 2 samples.

Results

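Mucosal homing integrins and chemokine receptors are the surface proteins with which lymphocytes leave the blood in gut tissue, keep their place there and leave again. The 10 genes described here were taken by symbol (Itga4, Itgb7, Itgae, Ccr9, Ccr10, Ccr6, Cxcr6, Cxcr3, Gpr183 and Cxcr4). All 10 were among the 30905 genes of the deposited table, and each had unique molecular identifiers (UMIs, molecules counted after removal of PCR copies) in the lymphoid cells of both libraries. Together they held 59204 of the 58574605 UMIs of the 8670 B, plasma, T and innate lymphoid cells, which were part of 9378 cells kept.

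Both groups were male C57BL/6 mice with colitis-associated colorectal tumors. Every mouse, controls included, received azoxymethane, a colon carcinogen, once at 12 mg/kg, and then 3 cycles of dextran sodium sulfate, which injures the colon epithelium, at 2.5% for 7 days with 14 days of water after each. From cycle 2 on, 1 group ate ad libitum and the other was given a fasting-mimicking diet (FMD). Each diet has 1 library, made from sorted CD45+ cells of 4 pooled mice, so the mice cannot be told apart and no test between the diets is possible. The tissue is labelled as colorectal cancer tissue, while the protocol names both tumor-bearing colons and matched normal colons.

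As background, the integrin chain encoded by Itga4 pairs with that of Itgb7 to bind the gut vessel addressin MAdCAM-1, and the chain encoded by Itgae pairs with the same beta7 chain to bind E-cadherin on epithelium. Chemokine receptors add the direction: CCR9 and CCR10 answer chemokines of small bowel and colon epithelium, CCR6 answers CCL20 over lymphoid follicles, CXCR6 and CXCR3 answer CXCL16 and the interferon-induced CXCL9 and CXCL10, and CXCR4 answers CXCL12 of stroma. GPR183 guides B and T cells along gradients of an oxidised cholesterol in follicles and in the colon.

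The genes lie on 8 chromosomes in the GENCODE vM21 annotation of GRCm38, the build of the counts. Itga4 is at chr2:79255426-79333123 (plus strand), Itgb7 at chr15:102215995-102231944 (minus strand) and Itgae at chr11:73090583-73147446 (plus strand). Ccr9 at chr9:123678439-123784330 (plus strand) and Cxcr6 at chr9:123806475-123811760 (plus strand) are neighbours, with 22144 bases between the annotated genes. Ccr10 is at chr11:101172997-101175443 (minus strand), Ccr6 at chr17:8236043-8257141 (plus strand), Cxcr3 at chrX:101731535-101734269 (minus strand), Cxcr4 at chr1:128588199-128592293 (minus strand) and Gpr183 at chr14:121952551-121965195 (minus strand). Of these genes, 6 (Itga4, Itgae, Ccr9, Ccr10, Cxcr6 and Gpr183) overlap a gene on the opposite strand, and whether reads were counted by strand is not given in the sources used here. The opposite-strand neighbours held from 2 UMIs (Slc6a20a, over Ccr9) to 3053 UMIs (Ubac2, around Gpr183) in the lymphoid cells. Ccr9 also overlaps 2 genes on its own strand, Gm17200, with 9 UMIs in the lymphoid cells, and Gm17020, which was not in the count table.

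The sequence just before the start site was read for the 8 members that had an entry in the RefSeq promoter table of GRCm38.p6. Within the 250 bases before the RefSeq start, the RUNX core TGTGGT, or ACCACA for the other strand, occurred in Itga4, Cxcr6 and Cxcr3. The core AGGTCA of the ROR element, or TGACCT, occurred in Ccr6, and the full element was not searched. For Cxcr3, the last 122 bases of the window lie inside the GENCODE gene. Its match, 110 bases before the RefSeq start, is among them. Such windows are common: 14.0% of all 32851 promoter windows of that length held the RUNX core and 14.0% the AGGTCA core. The windows of Itga4 and Cxcr6 and the first window of Ccr6 are shown. Each holds a match, and the levels of these genes separate the lymphoid classes below. Capitals mark the match, and each window ends 1 base before the RefSeq start (chr2:79255176-79255425, chr9:123806227-123806476 and chr17:8235793-8236042, all on the plus strand). A match is a run of letters, not a binding site.
Itga4: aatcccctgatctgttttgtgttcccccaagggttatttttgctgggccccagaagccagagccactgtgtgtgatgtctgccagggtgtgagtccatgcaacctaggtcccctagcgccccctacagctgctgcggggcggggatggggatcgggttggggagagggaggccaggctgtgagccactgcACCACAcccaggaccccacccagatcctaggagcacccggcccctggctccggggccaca
Cxcr6: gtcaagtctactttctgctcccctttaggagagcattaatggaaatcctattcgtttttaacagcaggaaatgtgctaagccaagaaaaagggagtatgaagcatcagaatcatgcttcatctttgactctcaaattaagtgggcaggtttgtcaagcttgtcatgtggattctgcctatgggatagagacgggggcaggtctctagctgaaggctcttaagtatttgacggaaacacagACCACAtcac
Ccr6: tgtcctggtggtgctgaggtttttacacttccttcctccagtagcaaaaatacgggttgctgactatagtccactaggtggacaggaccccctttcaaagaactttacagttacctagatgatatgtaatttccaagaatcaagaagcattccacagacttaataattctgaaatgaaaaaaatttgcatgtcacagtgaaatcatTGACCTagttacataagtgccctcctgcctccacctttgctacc

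Depth was alike in the libraries: 35712762 UMIs over 6089 barcodes with ad libitum feeding, and 35280790 over 5877 with FMD, of which 4815 and 4563 cells were kept, at medians of 5486 and 5721 UMIs. The libraries shared 7 barcode sequences. Clustering, from which the 10 members and the other integrins, chemokine receptors, selectins and egress receptors were left out, gave 16 lymphoid classes, from 24 cells (innate lymphoid-like cells, ad libitum) to 2808 (B-like cells, ad libitum). The class names were rebuilt from marker genes: Cd79a had a UMI in 98.8% and 98.4% of B-like cells, Foxp3 in 78.9% to 84.8% of cells in the 2 regulatory T-like classes and Cd3e in 82.8% to 93.7% of cells in the 10 T-like classes. An unnamed cluster of T cells led by interferon-response genes, with 1 and 24 cells, and other unnamed cells were left out. Levels are given as CPM, a gene's UMIs per 1000000 UMIs of the class outside immunoglobulin and mitochondrial genes, with 95% Poisson intervals in parentheses where given. Counts of cells with a UMI are at full depth unless thinning is named. These intervals and those of the ratios cover counting error only and hold no spread between mice.

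Most members lay within 1.5-fold between the diets in most classes, and where they lay outside it they were mostly lower in the FMD library. A class needed 25 cells or more per library for a ratio, and a pair of gene and class was called at 1.5-fold with at least 50 UMIs over both libraries. Of 150 possible pairs 86 could be called on: 1 was higher in the FMD library, 11 were lower and 74 lay within 1.5-fold. Over all genes and classes by the same rule, 4.01% were higher and 4.33% lower, against 1.16% and 12.8% of the members' pairs. The counting interval of the log2 ratio lay above 0 for 5 pairs, below 0 for 22 and across 0 for 59. Of the 11 lower pairs, 3 were in germinal center B-like cells, and most of their UMIs came from cells with T cell markers, as described below. Without those cells 8 pairs were lower.

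**Figure D1:**
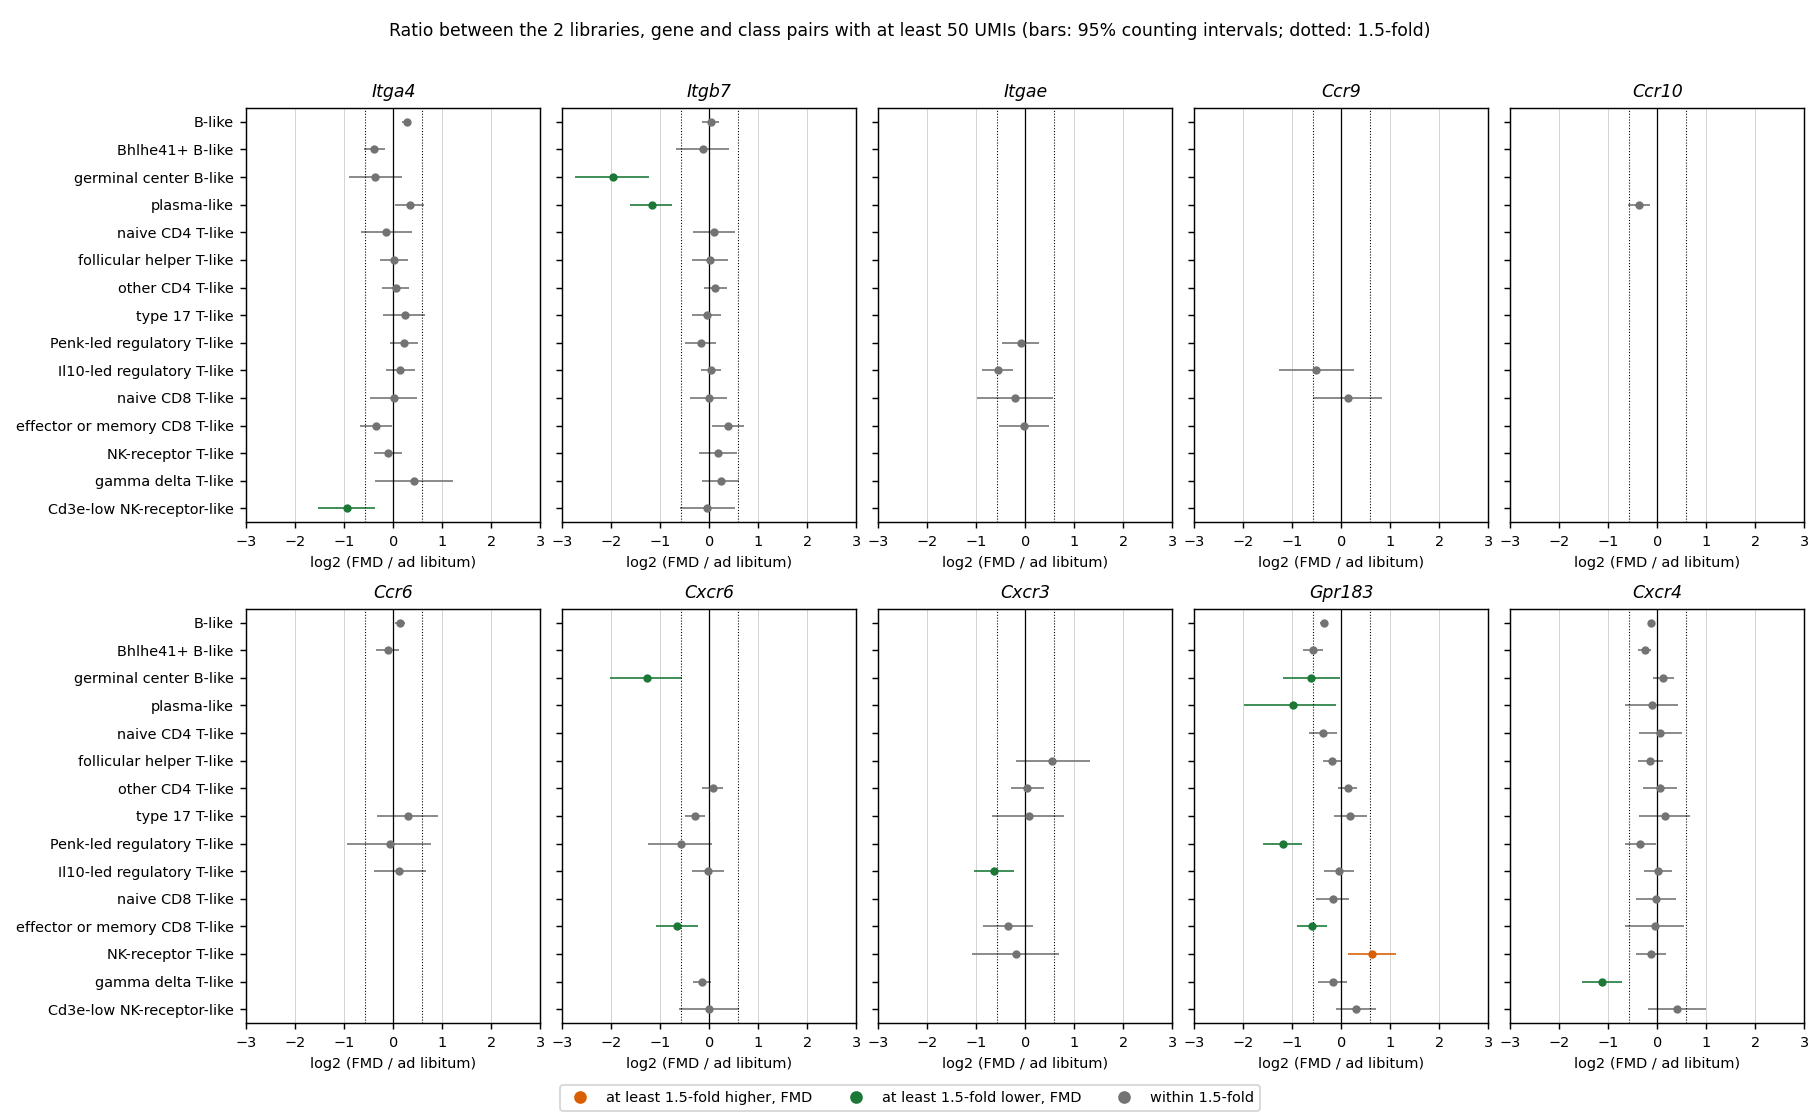
Log2 ratio of the FMD to the ad libitum library (x axis) for each gene in each lymphoid class (y axis), for pairs with at least 50 UMIs, with 95% counting intervals and dotted lines at 1.5-fold. Of 86 pairs, 74 lie between the dotted lines, 11 to their left and 1, Gpr183 in NK-receptor T-like cells, to their right.

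Itga4, the alpha4 chain, was found in every class, with the highest values in the Penk-led regulatory T-like cells, a Foxp3+ cluster that also expressed Ikzf2 and Penk. There it stood at 316 CPM (276 to 360.2) in the ad libitum library and 368 CPM (319 to 421) in the FMD library. Cd3e-low NK-receptor-like cells had 315 CPM in the ad libitum library, and their interval overlapped; under the alternatives they or NK-receptor T-like cells were highest there in 5 of 8. NK-receptor T-like cells had 289 and 269 CPM, with overlapping intervals in the ad libitum library and separate ones in the FMD library. Bhlhe41+ B-like cells, a B cell cluster with Apoe and Cd86 among its leading genes, had more Itga4 than the other B-like cells in both libraries: 268 and 205 CPM against 109.8 and 132 CPM. The lowest levels, 48.1 to 71.9 CPM, were those of germinal center B-like, naive CD4 T-like and naive CD8 T-like cells.

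Between the diets, Itga4 moved in opposite directions in the 2 B cell classes, by less than 1.5-fold in each. B-like cells held 1519 and 1709 UMIs, with a log2 ratio of 0.27 (0.17 to 0.37), and Bhlhe41+ B-like cells 498 and 308 UMIs, with a log2 ratio of -0.39 (-0.60 to -0.18). At an equal depth of 1000 UMIs per cell, 9.10% of B-like cells had an Itga4 UMI in the ad libitum library and 10.8% in the FMD library (unthinned, 33.0% and 37.9%). Among the T-like classes the ratios ran from -0.35 in effector or memory CD8 T-like cells to 0.43 in gamma delta T-like cells. The call for this gene was in the Cd3e-low NK-receptor-like cells, a small cluster led by Il22, Xcl1 and Ncr1, where Itga4 was 315 CPM (237 to 410.1) in the ad libitum library and 163 CPM (121 to 216) in the FMD library. This is a log2 ratio of -0.95 (-1.53 to -0.37) from 55 and 50 UMIs, and 20 of 26 cells had a UMI with ad libitum feeding and 24 of 50 with FMD. In that class 6.13% of all genes were lower by the same rule. Alternative settings gave log2 ratios from -0.95 to -0.13, of which 4 of 5 were past 1.5-fold.

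Itgb7, the beta7 chain shared by both gut integrins, was high in tissue T cells and low in B cells. Il10-led regulatory T-like cells, the second Foxp3+ cluster, held the most, 459.6 CPM (409 to 515) in the ad libitum library and 468 CPM (434 to 505) in the FMD library. Type 17 T-like cells, a cluster with Il17a and Il17f, had 363 and 350.5 CPM, innate lymphoid-like cells, which expressed Gata3 and Il5, 328 and 373 CPM, and gamma delta T-like cells 317 and 373 CPM; these 3 did not differ beyond their intervals. Naive CD4 and naive CD8 T-like cells lay lower, at 93.7 to 114.79 CPM, and B-like cells at 37.1 and 37.7 CPM. In 12 of the 15 classes with a ratio the log2 difference between the diets was between -0.18 and 0.23. Effector or memory CD8 T-like cells had a log2 ratio of 0.37 (0.05 to 0.70), at 207 and 268 CPM. The gene was called in 2 classes, plasma-like and germinal center B-like cells, as lower in the FMD library in both. In the states of the B-like cells, described below, Itgb7 was higher with FMD in heat shock-high cells. There it was 56.8 and 91.9 CPM from 64 and 59 UMIs, a log2 ratio of 0.70 (0.16 to 1.23). The log2 ratio was 0.03 in other, -0.22 in activated and 0.36 in interferon-responding cells. The share of all genes was not counted by state.

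Plasma-like cells, which carry Jchain and Sdc1 and secrete antibody, had 213 CPM (189 to 239) in the ad libitum library and 94.1 CPM (70.9 to 123) in the FMD library. The log2 ratio was -1.18 (-1.62 to -0.76) from 285 and 55 UMIs in 87 and 32 cells. Over the alternatives the log2 ratio ranged from -1.34 to -1.11, and 7 of 7 were past 1.5-fold. At full depth, with medians of 38021 and 40722 UMIs per cell, 52 of 87 cells (59.8%) had a UMI with ad libitum feeding. With FMD 22 of 32 (68.8%) had one, so this share went the other way from the CPM. The median was 1 Itgb7 UMI per cell in both libraries. The 5 cells with the most held 79 of 285 UMIs with ad libitum feeding and 26 of 55 with FMD. At 1000 UMIs per cell the gene was found in 10.5% and 6.25% of cells, with overlapping binomial intervals. The cell with the most had 17 and 6 UMIs. Among all genes tested in plasma-like cells 5.21% were lower by the same rule, and Klf2, a transcription factor that drives egress receptors, was among them at 392 and 125 CPM, log2 ratio -1.65, interval -2.02 to -1.29. Epithelial Epcam had a UMI in 60.9% and 65.6% of plasma-like cells, and its part in these values was not tested.

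The plasma-like class was split by heavy chain, because IgA cells are the plasma cells of the gut. IgA cells numbered 80 and 23, and cells of another isotype 7 and 9. Within IgA cells Itgb7 was 231 CPM (205 to 260.2) in the ad libitum library and 107 CPM (79.6 to 141) in the FMD library. The gap in CPM was thus also present in the IgA cells alone. The share of IgA cells with an Itgb7 UMI was instead higher with FMD, 20 of 23 against 51 of 80, with overlapping binomial intervals. The cells of another isotype had 39.5 and 42.3 CPM, from 5 UMIs in each library. Itga4 in IgA cells was 201 CPM (176 to 228) and 174 CPM (138 to 216). In cells of another isotype it was 213 CPM (140.5 to 310.1), which overlapped, and 576 CPM (447 to 730.0), which did not, the latter from 68 UMIs in 9 cells. Over the whole class the Itga4 log2 ratio was 0.34 (0.04 to 0.63), whereas within IgA cells the FMD value was the lower, with overlapping intervals.

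**Figure D2:**
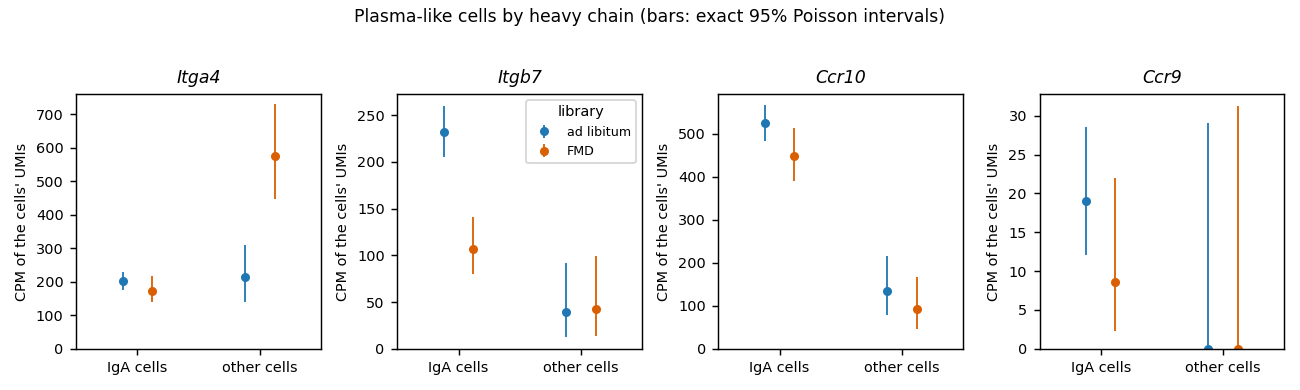
Levels (CPM, y axis) of 4 genes in plasma-like cells with IgA or another heavy chain (x axis), by library, with 95% Poisson intervals. Itgb7 in IgA cells is 231 CPM in the ad libitum library and 107 CPM in the FMD library. Ccr9 has UMIs in IgA cells and none in the 7 and 9 others, whose intervals reach above the IgA levels.

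In the germinal center B-like cluster, a cycling cluster with Rgs13 and Mki67, the Itgb7 and Cxcr6 calls rested on a few cells. Of its 70 and 82 cells, 9 in each library held at least 2 UMIs of the T cell markers, with a median of 0 and 1 B cell marker UMIs, against 63 and 86 in the other cells. These cells held 51 of 56 and 16 of 22 Itgb7 UMIs, and all 43 and 27 Cxcr6 UMIs. Over the whole cluster Itgb7 was 64.2 and 16.5 CPM, Cxcr6 49.3 and 20.3 CPM and Gpr183 60.7 and 39.8 CPM. The log2 ratios were -1.96 for Itgb7, -1.28 for Cxcr6 and -0.61 for Gpr183, beside 6.94% of all genes lower. Without the 18 cells Itgb7 was down to 5 and 6 UMIs and Cxcr6 to 0 in both, too few for a ratio. Gpr183, of whose UMIs 29 of 53 and 32 of 53 lay in those cells, then had 24 and 21 UMIs and a log2 ratio of -0.89 (-1.81 to 0.02), past 1.5-fold but under the minimum of 50 UMIs for a call. When classes were set from marker counts per cell, the Itgb7 ratio was 0.07.

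**Figure D3:**
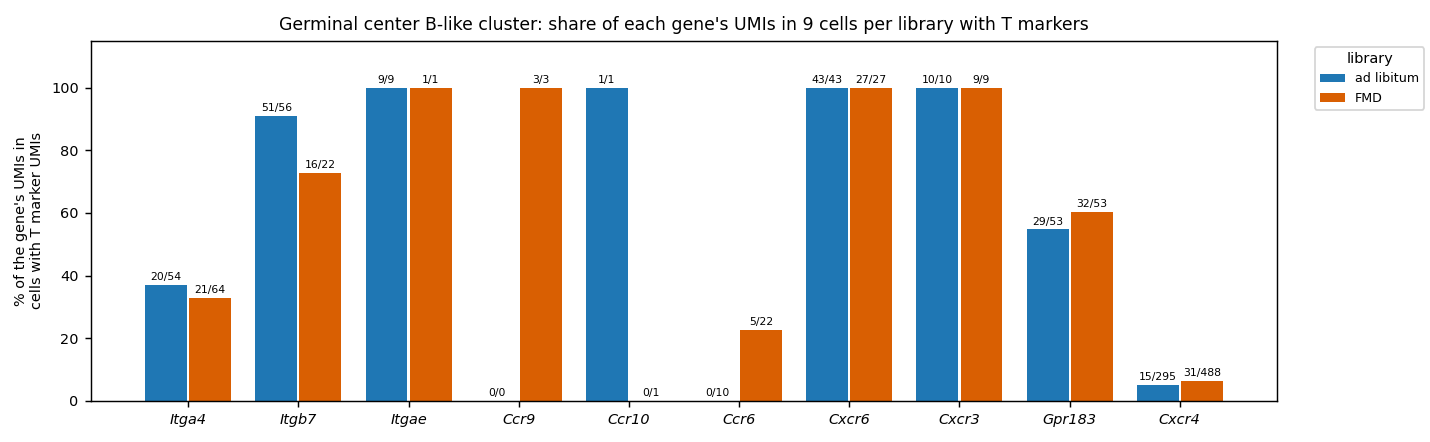
Share of each gene's UMIs in the germinal center B-like cluster (y axis, percent) that lies in its 9 cells per library with T marker UMIs, by gene (x axis) and library, with the UMIs written over each bar. All Cxcr6 and Cxcr3 UMIs and 51 of 56 Itgb7 UMIs of the ad libitum library come from those cells, against 15 of 295 for Cxcr4.

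Itgae, the alphaE chain (CD103) of cells held at epithelium, was highest in 3 T-like classes. It was 217 CPM (182 to 256) in the ad libitum library and 146 CPM (127 to 167) in the FMD library in Il10-led regulatory T-like cells, 189.8 and 178 CPM in Penk-led ones and 99.0 and 97.5 CPM in effector or memory CD8 T-like cells. At an equal depth of 1000 UMIs it was found in 16.5% and 15.1% of Il10-led, 17.1% and 16.1% of Penk-led and 10% and 8.33% of CD8 cells, against 0% and 0.0394% of B-like cells, taken here as background. Median depth was 4982 and 5125 UMIs in B-like cells against 6780 and 6969.5 in Il10-led cells. Unthinned, the B-like shares were 0.142% and 0.157%, and those in the 3 T-like classes were 56.8% and 43.4%, 57.0% and 55.6%, and 28.8% and 26.4%. Type 17 T-like cells, though high in Itgb7, had 5.49 and 5.01 CPM of Itgae, and innate lymphoid-like cells 1 and 0 UMIs. The ratio between the diets was -0.57 (-0.88 to -0.25) in Il10-led regulatory T-like cells, just inside 1.5-fold, and -0.10 (-0.48 to 0.29) in Penk-led ones. NK-receptor T-like cells, with 38 and 8 UMIs, had 41.6 and 12.96 CPM, below the UMI minimum for a call. Gamma delta T-like cells, with 22 and 8 UMIs, had 53.2 and 27.9 CPM, also below it. Naive CD8 T-like cells had 30.3 and 26.2 CPM, a log2 ratio of -0.21 (-0.99 to 0.57) from 34 and 27 UMIs.

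Whether the 2 chains of an integrin were found in the same cells was described at 1000 UMIs per cell. Among B-like cells with an Itga4 UMI, 2.75% and 3.28% also had an Itgb7 UMI, against 2.86% and 3.09% of those without. In Il10-led regulatory T-like cells the shares were 45.5% and 32.4% with Itga4 and 35% and 31.0% without, and in Penk-led ones 23.3% and 11.5% and 18.7% and 27.9%. For Itgae in Il10-led cells, 33.3% and 31.0% of positive and 36.8% and 31.3% of negative cells had Itgb7. In each of these comparisons the exact binomial intervals of the 2 shares overlapped. At 2000 UMIs the intervals separated in the B-like cells of the ad libitum library, where 10.3% (7.65 to 13.4) of cells with Itga4 and 5.42% (4.53 to 6.42) of those without had Itgb7. In the FMD library 7.19% (4.97 to 10.0) of cells with Itga4 and 7.38% (6.29 to 8.59) of those without had Itgb7, and the intervals overlapped. Without thinning, 19.3% (16.8 to 22.0) of ad libitum B-like cells with Itga4 and 13.5% (11.9 to 15.1) of those without had Itgb7. In Il10-led cells of the FMD library the shares were 87.2% (80.3 to 92.4) with Itga4 and 69.2% (56.6 to 80.1) without. There they were 90.7% (82.5 to 95.9) with Itgae and 74.1% (65.0 to 81.9) without. In other CD4 T-like cells of the FMD library they were 80.4% (71.4 to 87.6) with Itga4 and 56.4% (44.7 to 67.6) without. In each of these unthinned comparisons the intervals were separate. In Il10-led cells of the ad libitum library those for Itgae overlapped, at 96.3% (87.3 to 99.5) and 78.0% (62.4 to 89.4). There the shares for Itga4 went the other way, 86.7% (75.4 to 94.1) with it and 91.4% (76.9 to 98.2) without, with overlapping intervals. Intervals also overlapped in other CD4 T-like cells of the ad libitum library, at 75.3% with Itga4 and 60.6% without. They overlapped too in B-like cells of the FMD library, at 17.3% with Itga4 and 16.1% without. Unthinned cells differ in depth, and its part in these shares was not tested.

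Of the other leukocyte integrins, all 11 on the list were in the table, and 67 pairs of gene and class could be called on: 2 were higher and 7 lower in the FMD library, with a median log2 ratio of -0.02, beside 4.01% higher and 4.33% lower over all genes and classes. Itgav, a chain of the vitronectin receptor, was lower in NK-receptor T-like cells (84.3 and 32.4 CPM, log2 ratio -1.38, interval -2.17 to -0.65). Itgb1, the other partner of the alpha4 chain, was lower in plasma-like cells (49.4 and 22.2 CPM, log2 ratio -1.15, interval -2.13 to -0.28). Itgb3 was lower in Cd3e-low NK-receptor-like cells (178 and 75.2 CPM, log2 ratio -1.24, interval -2.08 to -0.41). Itgal was lower (73.3 and 38.3 CPM, log2 ratio -0.94, interval -1.50 to -0.38) and Itga6 higher (18.3 and 31.5 CPM, log2 ratio 0.78, interval -0.08 to 1.71) in the germinal center B-like cluster, which held the T marker cells. In those 4 classes 5% (NK-receptor T-like), 5.21% (plasma-like), 6.13% (Cd3e-low) and 6.94% (germinal center B-like) of all genes were lower, and 4.37% of germinal center B-like genes were higher.

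Ccr10, receptor of the colon epithelial chemokine CCL28, marked the plasma-like cells. They had 487 CPM (450.3 to 526) in the ad libitum library and 376 CPM (328 to 429.7) in the FMD library, from 651 and 220 UMIs, and the highest value in any other class was 5.08 CPM, from 6 UMIs. B-like cells held 0 UMIs in 2808 ad libitum cells, which allows up to 0.217 CPM, and 1 UMI in 2544 FMD cells. Within the class Ccr10 was 524 and 448 CPM in IgA cells and 134 and 93.1 CPM in cells of another isotype. The log2 ratio between the diets over the class was -0.37 (-0.60 to -0.15), within 1.5-fold.

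Ccr9, receptor of the small bowel chemokine CCL25, was sparse. The highest levels were those of naive CD8 T-like cells, 32.0 CPM (22.4 to 44.4) in the ad libitum library and 35.0 CPM (24.5 to 48.4) in the FMD library, and of Il10-led regulatory T-like cells, 39.0 CPM (25.2 to 57.5) in the ad libitum library and 27.2 CPM (19.5 to 37.1) in the FMD library. These 2 classes did not differ beyond their intervals, and their log2 ratios between the diets were 0.13 (-0.58 to 0.83) and -0.52 (-1.27 to 0.27). Plasma-like cells had 23 and 4 UMIs, all in IgA cells, at 19.0 and 8.58 CPM. The 0 UMIs in the 7 and 9 cells of another isotype allow up to 29.1 and 31.2 CPM, so the isotypes cannot be told apart. No other lymphoid class had more than 9 UMIs of Ccr9 in a library apart from the B-like cells, whose 14 and 15 UMIs were spread over 2808 and 2544 cells. With classes from marker counts per cell, Cd3e-low NK-receptor-like cells were highest for Ccr9 in both libraries.

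Ccr6, receptor of CCL20, had a B cell and a type 17 side. Bhlhe41+ B-like cells were highest, at 178 CPM (159 to 198) in the ad libitum library and 163 CPM (144 to 185) in the FMD library, above B-like cells, at 105 CPM (99.3 to 110.2) in the ad libitum library and 114.96 CPM (109 to 121) in the FMD library. Among T-like cells the gene was found in type 17 (71.3 and 87.6 CPM), Il10-led regulatory (67.0 and 72.8 CPM) and Penk-led regulatory cells (41.1 and 39.1 CPM), whereas effector or memory CD8 and NK-receptor T-like cells had 0 UMIs in either library, which allows up to 3.28 to 5.22 CPM. Germinal center B-like cells, which also come from the B lineage, had 11.5 and 16.5 CPM. No class was called between the diets: the log2 ratio was 0.14 (0.03 to 0.24) in B-like, -0.12 (-0.36 to 0.12) in Bhlhe41+ B-like and 0.30 (-0.34 to 0.91) in type 17 T-like cells.

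Cxcr6, receptor of CXCL16 and a gene of tissue-resident lymphocytes, was highest in gamma delta and type 17 T-like cells. Gamma delta T-like cells, with Trdc and Cd163l1, had 1481 CPM (1366 to 1603) in the ad libitum library and 1330.0 CPM (1200.0 to 1470.3) in the FMD library. Type 17 T-like cells followed at 848 CPM (789 to 910.0) in the ad libitum library and 696 CPM (617 to 783) in the FMD library and innate lymphoid-like cells at 437 and 356 CPM. Next came other CD4 T-like cells at 271 and 284 CPM, Cd3e-low NK-receptor-like cells at 218 and 216 CPM and Il10-led regulatory T-like cells at 181 and 178 CPM. The intervals of gamma delta and type 17 T-like cells did not overlap in either library, nor did those of type 17 and innate lymphoid-like cells. With classes from marker counts per cell, type 17 T-like cells were highest in both libraries. Naive CD4 T-like cells had 0 UMIs of Cxcr6 in both libraries, which allows up to 3.27 and 2.92 CPM, and B-like cells 1.16 and 0.542 CPM.

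In the FMD library Cxcr6 was lower in effector or memory CD8 T-like cells, at 189 CPM (160.3 to 222) in the ad libitum library and 120.2 CPM (93.5 to 152) in the FMD library. The log2 ratio was -0.66 (-1.09 to -0.24) from 151 and 69 UMIs, and 61 of 111 cells had a UMI with ad libitum feeding and 33 of 87 with FMD. The Cxcr6 ratio stayed past 1.5-fold in 6 of 8 alternative settings, which ran from -0.79 to -0.46. In this class 4.93% of all genes were lower by the same rule. In type 17 T-like cells the log2 ratio was -0.29 (-0.49 to -0.09) and in gamma delta T-like cells -0.16 (-0.34 to 0.03), both within 1.5-fold. At 1000 UMIs per cell, 50.4% and 47.7% of type 17 T-like cells had a Cxcr6 UMI, against 0.0357% and 0.0394% of B-like cells (unthinned, 89.7% and 91.3% against 0.499% and 0.275%). Of type 17 T-like cells with a Ccr6 UMI in the ad libitum library, 5 of 11 also had Cxcr6 (45.5%), close to the 50.9% of those without Ccr6.

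Cxcr3, receptor of the interferon-induced chemokines CXCL9 and CXCL10, was highest in 3 T-like classes whose levels did not differ beyond their intervals: other CD4 (113 and 117 CPM), Il10-led regulatory (134 and 85.8 CPM) and effector or memory CD8 cells (118 and 92.3 CPM). Type 17 (57.0 and 60.1 CPM), NK-receptor (35.0 and 30.8 CPM) and follicular helper T-like cells (22.6 and 33.1 CPM) also held it. In Il10-led regulatory T-like cells it was lower in the FMD library, with a log2 ratio of -0.64 (-1.05 to -0.23) from 86 and 126 UMIs. There 36 of 95 cells had a UMI with ad libitum feeding and 66 of 198 with FMD, and 2.77% of all genes were lower. Alternative settings gave log2 ratios from -0.71 to -0.37, of which 6 of 8 were past 1.5-fold. In gamma delta T-like cells 0 and 13 UMIs were counted, too few for a ratio. Of cells with Cxcr6 at equal depth in other CD4 T-like cells, 6 of 32 and 6 of 49 also had Cxcr3.

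Cxcr4, receptor of the stromal chemokine CXCL12, was highest in B cells. B-like cells had 617 CPM (604 to 631) in the ad libitum library and 564 CPM (551 to 577) in the FMD library and Bhlhe41+ B-like cells 642 CPM (606 to 679.8) in the ad libitum library and 536 CPM (499 to 574) in the FMD library, and the order of these classes differed between the libraries. Germinal center B-like cells had 338 and 366 CPM, 15 of 295 and 31 of 488 UMIs coming from the cells with T markers. Plasma-like cells were at 79.3 and 73.6 CPM. In gamma delta T-like cells Cxcr4 was 501 CPM (435 to 574) in the ad libitum library and 229.8 CPM (178 to 292) in the FMD library, a log2 ratio of -1.12 (-1.55 to -0.72), and 38 of 57 cells had a UMI with ad libitum feeding and 20 of 44 with FMD. A few cells held 82 of 207 UMIs with ad libitum feeding and 42 of 66 with FMD, and the cell with the most 31 and 18. The counting interval leaves out this spread between cells. Over the alternatives the log2 ratio ranged from -1.38 to -0.97, and 8 of 8 were past 1.5-fold. In that class 6.85% of all genes were lower. The other 14 classes with a ratio lay between -0.35 and 0.39.

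**Figure D4:**
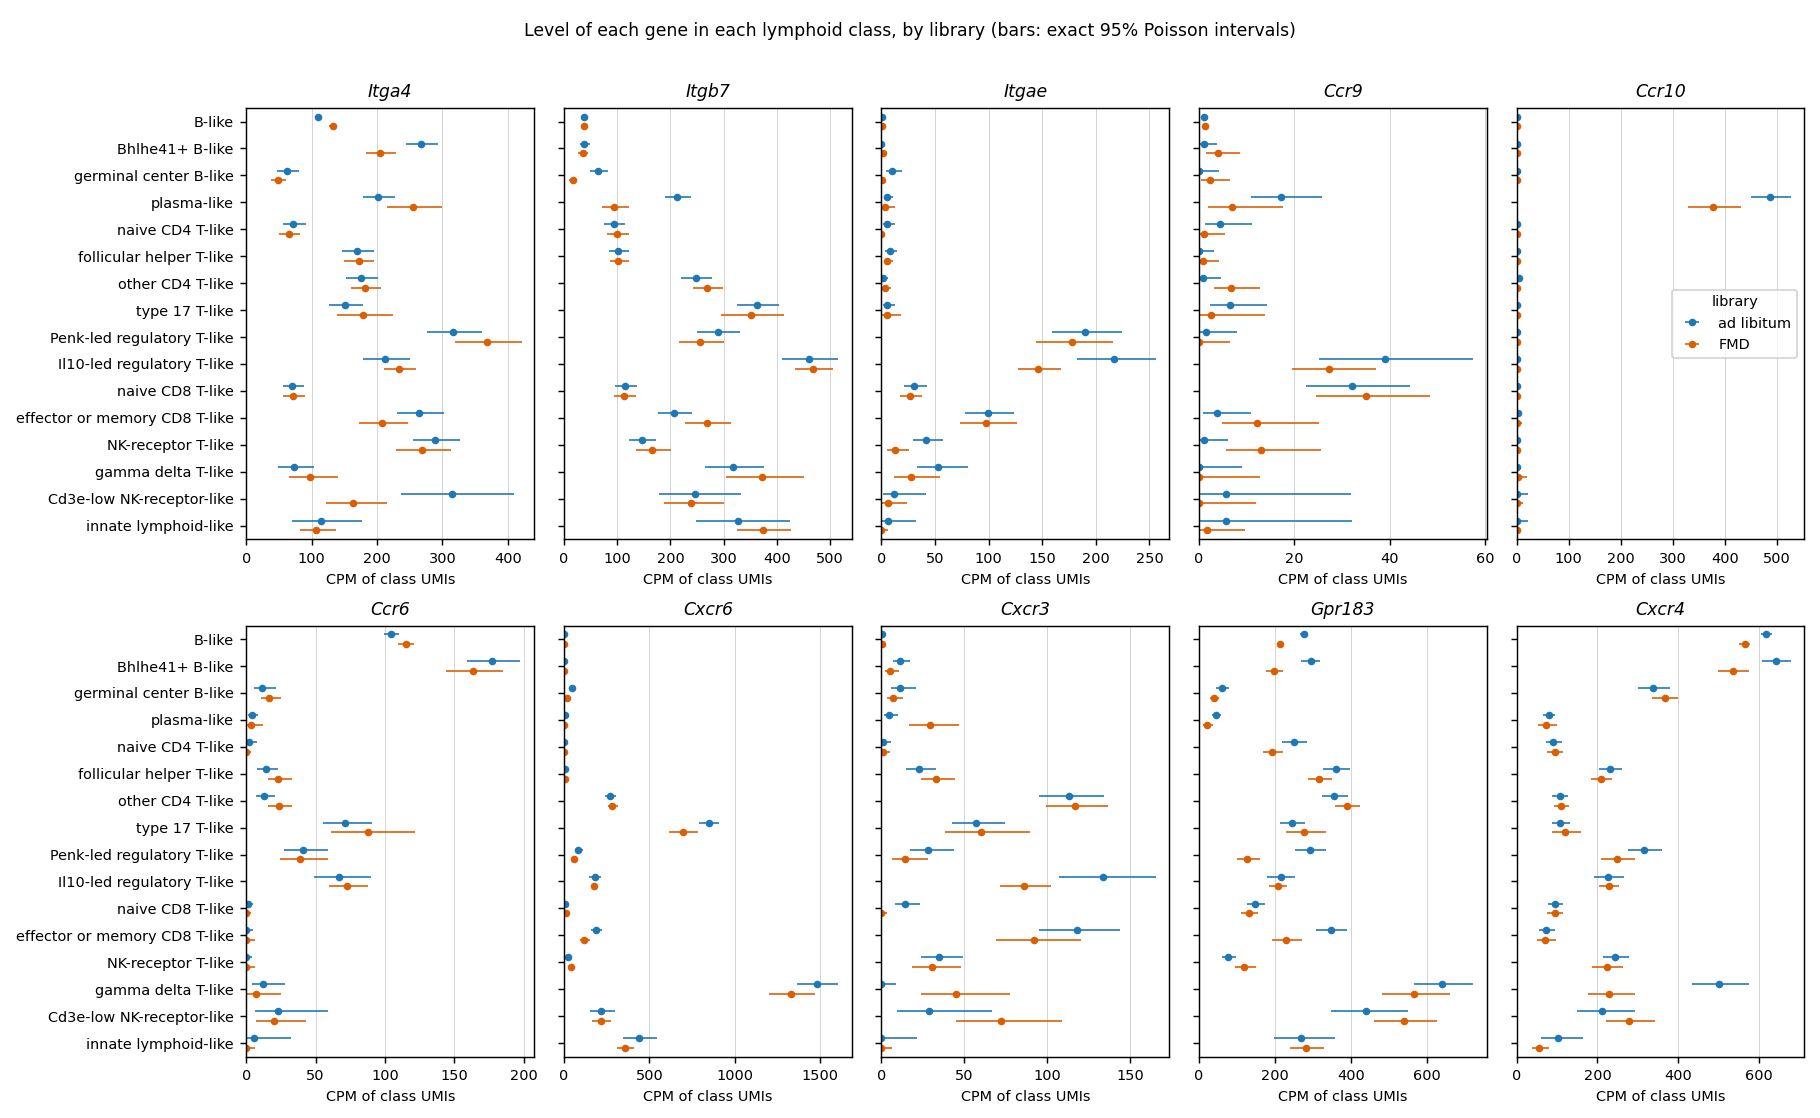
Level (x axis, CPM of the class's UMIs, linear from 0) of each of the 10 genes in 16 lymphoid classes (y axis), by library, with exact 95% Poisson intervals. Ccr10 stands out in plasma-like cells (487 and 376 CPM), Cxcr6 in gamma delta T-like cells (1481 and 1330.0 CPM) and Itgae in the 2 regulatory T-like classes.

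Among 14 other chemokine receptors, 49 pairs could be called on: 5 were higher and 7 lower in the FMD library, with a median log2 ratio of 0.04, beside 4.01% higher and 4.33% lower over all genes and classes. Ccr7, the lymph node receptor of naive and central memory cells, was higher in type 17 T-like cells (58.1 and 140.2 CPM, log2 ratio 1.27, interval 0.70 to 1.84). Ccr1, a receptor of inflammatory chemokines, was higher in Il10-led regulatory T-like cells (71.7 and 153 CPM, log2 ratio 1.10, interval 0.63 to 1.59), and Ccr4 in Penk-led ones (32.6 and 56.8 CPM, log2 ratio 0.80, interval -0.02 to 1.64). Ccr2 was lower in effector or memory CD8 T-like cells (77.7 and 43.5 CPM, log2 ratio -0.84, interval -1.57 to -0.14) and Ccrl2, a non-signalling chemerin receptor, in B-like cells (4.92 and 2.17 CPM, log2 ratio -1.18, interval -1.87 to -0.53). By the same rule 4.64% of all genes were higher in type 17 T-like cells, 5.65% in Il10-led and 5.39% in Penk-led regulatory T-like cells, and 1.45% were lower in B-like cells. The 6 selectin genes and ligands had 2 pairs higher and 2 lower of 35, beside 4.01% higher and 4.33% lower over all genes. Among them were Cd44, the hyaluronan receptor, in Cd3e-low NK-receptor-like cells (126 and 291 CPM, log2 ratio 1.21, interval 0.52 to 1.95) and Selplg in the germinal center B-like cluster (96.2 and 46.6 CPM, log2 ratio -1.05, interval -1.55 to -0.56). In Cd3e-low NK-receptor-like cells 11% of all genes were higher.

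Gpr183, the receptor for 7alpha,25-dihydroxycholesterol, had the most calls of the 10 genes: 4 of 15 classes lower and 1 higher in the FMD library, where all genes and classes together had 4.01% higher and 4.33% lower. Among the 4 is the germinal center B-like cluster with its T marker cells. Its level was highest in gamma delta T-like cells, 641 CPM (566 to 723) in the ad libitum library and 568 CPM (484 to 662) in the FMD library, and next in Cd3e-low NK-receptor-like cells, 441 CPM (348 to 551) in the ad libitum library and 539 CPM (460.3 to 628) in the FMD library, with overlapping intervals in the FMD library. With classes from marker counts per cell, Cd3e-low cells (ad libitum) and other CD4 T-like cells (FMD) were highest. Plasma-like (44.1 and 22.2 CPM) and germinal center B-like cells (60.7 and 39.8 CPM) were lowest. Its median log2 ratio over the 15 classes was -0.18, and the counting interval lay below 0 in 7 classes and above 0 in 1.

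The largest called gap outside the germinal center B-like cluster was in Penk-led regulatory T-like cells, where Gpr183 was 292 CPM (253 to 334) in the ad libitum library and 128 CPM (100.03 to 161) in the FMD library. The log2 ratio was -1.19 (-1.60 to -0.80) from 206 and 72 UMIs, and 67 of 107 cells had a UMI with ad libitum feeding and 37 of 90 with FMD. In the class, 4.93% of all genes were lower. The Gpr183 ratio stayed past 1.5-fold in 7 of 8 alternative settings, which ran from -1.34 to -0.46. Il10-led regulatory T-like cells, by contrast, had 215 and 208 CPM, a log2 ratio of -0.05 (-0.35 to 0.25). In effector or memory CD8 T-like cells the gene was 347 CPM (308 to 391) in the ad libitum library and 229.9 CPM (192 to 273) in the FMD library, a log2 ratio of -0.60 (-0.91 to -0.29), and 83 of 111 cells had a UMI with ad libitum feeding and 46 of 87 with FMD. Alternative settings gave log2 ratios from -0.79 to -0.27, of which 5 of 8 were past 1.5-fold. Plasma-like cells had 59 and 13 UMIs, a log2 ratio of -0.99 (-1.98 to -0.11). NK-receptor T-like cells went the other way, at 77.7 CPM (60.7 to 98.1) in the ad libitum library and 119.9 CPM (94.2 to 151) in the FMD library, a log2 ratio of 0.63 (0.14 to 1.12) from 71 and 74 UMIs, where 3.79% of all genes were higher. Over the alternatives the log2 ratio ranged from 0.52 to 1.74, and 5 of 7 were past 1.5-fold.

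In B cells Gpr183 was lower in the FMD library by less than 1.5-fold, with narrow intervals: B-like cells had 276 CPM (267 to 285) in the ad libitum library and 215 CPM (207 to 223) in the FMD library, a log2 ratio of -0.36 (-0.43 to -0.29), and Bhlhe41+ B-like cells 294 CPM (270.1 to 320.0) in the ad libitum library and 197 CPM (176 to 221) in the FMD library, a log2 ratio of -0.58 (-0.78 to -0.37). The gene differed between states of the B-like cells. Activated cells, with Egr3 and Myc, had 473 and 436 CPM, against 193 and 142 CPM in the other, resting-like cells and 342 and 323 CPM in heat shock-high cells. Of 2808 B-like cells with ad libitum feeding 701 were activated, and of 2544 with FMD 522. Within states the log2 ratio was -0.45 (-0.55 to -0.34) in the other cells, -0.12 (-0.23 to -0.01) in activated, -0.08 (-0.33 to 0.16) in heat shock-high and 0.15 (-0.30 to 0.63) in interferon-responding cells. Ccr6 was also higher in activated (139 and 139.5 CPM) than in other B-like cells (94.6 and 110.0 CPM) in both libraries, while Itga4 was lower in activated (80.1 and 90.0 CPM) than in other B-like cells (117 and 145 CPM).

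**Figure D5:**
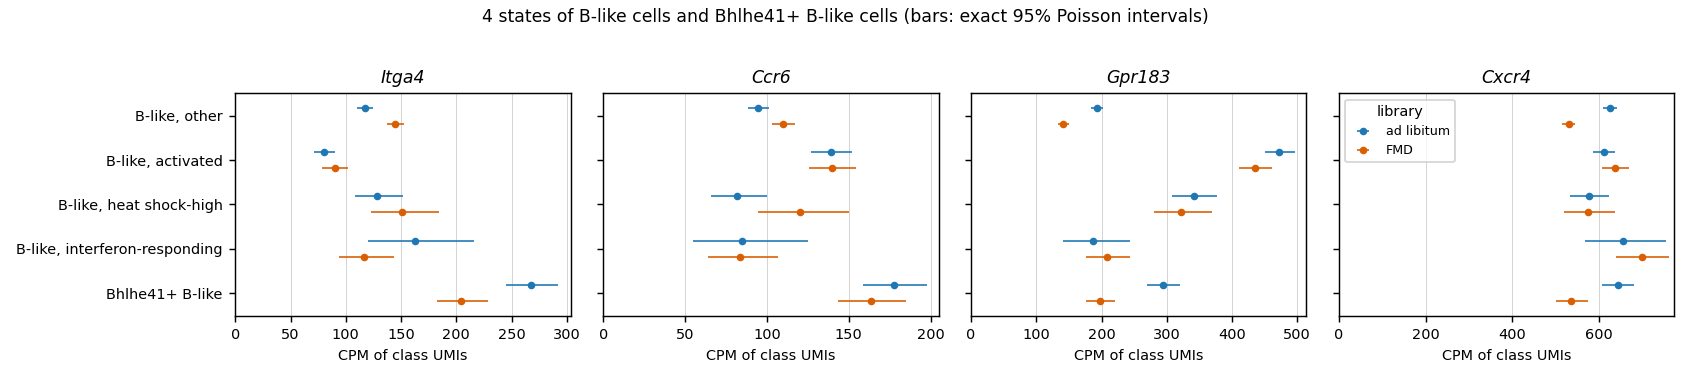
Level (x axis, CPM, linear from 0) of 4 genes in 4 states of B-like cells and in Bhlhe41+ B-like cells (y axis), by library, with exact 95% Poisson intervals. Gpr183 is 473 and 436 CPM in activated cells against 193 and 142 CPM in the other cells, while Cxcr4 lies between 530.0 and 698 CPM in every state.

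The innate lymphoid-like class had 24 ad libitum cells, under the minimum, and was given a ratio only under a minimum of 20 cells, chosen after the data were seen. There the log2 ratio was 0.19 (-0.24 to 0.64) for Itgb7, -0.30 (-0.68 to 0.10) for Cxcr6, 0.06 (-0.41 to 0.56) for Gpr183, -0.11 (-0.86 to 0.70) for Itga4 and -0.87 (-1.74 to 0.05) for Cxcr4. All 5 intervals included 0.

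Of 10 other guidance and egress receptors, 46 pairs could be called on, with 3 higher and 2 lower in the FMD library, beside the same 4.01% higher and 4.33% lower. Gpr55, a lysolipid receptor, was higher in Il10-led regulatory T-like cells (37.4 and 76.3 CPM, log2 ratio 1.03, interval 0.38 to 1.73), and Gpr18 lower in effector or memory CD8 T-like cells (155 and 95.8 CPM, log2 ratio -0.70, interval -1.18 to -0.23). Of the members' ligands 12 of 13 were in the table, and 13 pairs could be called on, with 4 higher and 4 lower, beside 4.01% higher and 4.33% lower over all genes and classes. Ccl20, the ligand of CCR6, was lower in Il10-led regulatory T-like cells (117 and 40.9 CPM, log2 ratio -1.52, interval -2.03 to -1.01), and in type 17 T-like cells it had 423 and 78 UMIs from 117 and 46 cells. Cxcl10, a ligand of CXCR3, was higher in Cd3e-low NK-receptor-like cells (40.1 and 170.0 CPM, log2 ratio 2.08, interval 0.94 to 3.47). This came from 7 and 52 UMIs, in a class where 11% of all genes were higher. Cxcl16, the ligand of CXCR6, lay mainly in the macrophage or dendritic-like cells, with 903 and 1287 UMIs, while in B-like cells it was higher with FMD (1.37 and 2.40 CPM, log2 ratio 0.80, interval -0.06 to 1.71), as 1.39% of all genes were. Madcam1, the ligand of alpha4beta7, had at most 1 UMI in any class. The 3 enzymes that make or degrade the GPR183 ligand had too few UMIs for a call in any class. Both libraries were made from sorted CD45+ cells, so levels of these ligands and enzymes in other cells of the tissue were not measured.

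Genes of retinoic acid and TGF-beta input, 15 in all, gave 117 pairs, of which 3 were higher and 7 lower, beside 4.01% higher and 4.33% lower over all genes and classes. In type 17 T-like cells Tgfb1 (403 and 235 CPM, log2 ratio -0.77, interval -1.12 to -0.44), the retinoid receptor Rxrb (52.7 and 25.0 CPM, log2 ratio -1.07, interval -2.22 to -0.07) and Smad4 (75.7 and 47.6 CPM, log2 ratio -0.67, interval -1.49 to 0.08) were lower, where 7.33% of all genes were. Smad3 was higher in Penk-led regulatory T-like cells (35.4 and 69.2 CPM, log2 ratio 0.97, interval 0.21 to 1.75) and Smad2 in other CD4 T-like cells (29.6 and 47.5 CPM, log2 ratio 0.68, interval 0.06 to 1.32), where 2.98% of all genes were. Smad7 was lower in the germinal center B-like cluster (127 and 73.6 CPM, log2 ratio -0.79, interval -1.20 to -0.38). The 15 transcription factors of residency and egress gave 150 pairs, 10 higher and 13 lower, beside the same 4.01% higher and 4.33% lower. Besides Klf2 in plasma-like cells, Tbx21, the factor of type 1 responses, was higher in Cd3e-low NK-receptor-like cells (91.7 and 170.0 CPM, log2 ratio 0.89). Rora (191 and 36.8 CPM, log2 ratio -2.38, interval -2.87 to -1.91), Maf (59.6 and 26.3 CPM, log2 ratio -1.18, interval -1.84 to -0.53), Prdm1 (36.7 and 17.3 CPM, log2 ratio -1.09, interval -1.93 to -0.27) and Bhlhe40 (286 and 159 CPM, log2 ratio -0.85, interval -1.12 to -0.58) were lower in the germinal center B-like cluster; the part of its T marker cells in these values was not tested. Runx3, whose family binds the core searched above, was highest in gamma delta T-like cells at 653 and 619.7 CPM, against 103 and 99.2 CPM in B-like cells.

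The genes most like each member in pattern were taken by Pearson's r of log2(CPM + 1) over the 32 sums of 16 classes and 2 libraries, among 8724 genes with at least 200 UMIs. The classes share library, depth and lineage, so r is a description. For Ccr10 they were Tnfrsf17 (r 0.93), Prg2 (r 0.91) and Cacna1h (r 0.91), the first of which is a survival receptor of plasma cells. For Cxcr6 they were Furin (r 0.93), Il12rb1 (r 0.92) and Cish (r 0.92). Itgb7 had H2-K1 (r 0.94), H2-D1 (r 0.92) and D16Ertd472e (r 0.91), and Cxcr4 had Stap1 (r 0.88), Pold4 (r 0.87) and Cd83 (r 0.85). Gpr183 had Sipa1l1 (r 0.86), Tecpr1 (r 0.85) and Nisch (r 0.82). Ccr6 had Sema4b (r 0.83), Setd5 (r 0.80) and Mif4gd (r 0.80), and Itgae had Abracl (r 0.79), Slc9a3r1 (r 0.78) and Hopx (r 0.75). Cxcr3 had Fbrs (r 0.78) and Ube2j2 (r 0.76), and Itga4 had Gpr55 (r 0.72), Ifnar2 (r 0.70) and Rilpl2 (r 0.68). Ccr9 had the weakest neighbours, Tapbpl (r 0.55), Cd8b1 (r 0.52) and Heatr5a (r 0.49), the second of which is a chain of CD8.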

How the data were processed

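The values are raw UMI counts per gene and cell, deposited by the authors as 1 matrix per library from 10x Genomics 3' V3 libraries. The submitters' processing notes list the build GRCm38 and the tools Seurat 2.3.4, Cell Ranger 3.1.0 and CASAVA 1.8. Strand setting and annotation release are not given in the sources used here. From these counts, cells with at least 200 genes and at most 20% mitochondrial UMIs were kept. Scrublet marked 2 cells per library, 0.0404% and 0.0422%, and so had not worked; cells with markers of 2 lineages (each at least 5 UMIs and 0.5 per 1000 UMIs of the cell) were removed as doublets too, 138 and 179 cells in all. Clustering used scanpy 1.11.5 and leidenalg 0.10.2 (2000 variable genes, 30 components, 15 neighbors, resolution 1), and T and innate lymphoid cells were clustered again, a step chosen after the clusters were seen. Counts of a class were summed per library. Intervals are exact (95%, scipy 1.17.1). Shares of cells used each cell thinned to 1000 UMIs, leaving out shallower cells, such as 5 and 3 B-like and 4 and 6 Il10-led regulatory T-like cells. There is 1 library per diet, so no test was made and no p-value is given. All 10 members are described in every class; of the other gene lists, the genes named are those with at least 50 UMIs and 1.5-fold apart, at most 6 per list by size of the ratio, each gene once in its class with the largest ratio. A few genes that these rules name are not reported here. The members and lists were chosen with earlier results of these data known. The ratio and thinning code was tested on simulated data.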

Additional observations from a re-analysis of the deposited data

Results flagged for a closer look

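Gpr183 was called in both directions: its log2 ratio of the FMD over the ad libitum library was 0.63 in NK-receptor T-like cells, and -0.99 in plasma-like, -0.61 in germinal center B-like, -1.19 in Penk-led regulatory T-like and -0.60 in effector or memory CD8 T-like cells. The difference between these classes was not tested, since each diet has 1 library. The first rests on 71 and 74 UMIs and its counting interval reaches down to 0.14. When homing genes were kept for clustering, no member was called higher in any class.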

How the results depend on the processing

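No paired analysis was possible because each diet has 1 library and both carry only replicate number 1. In the 5 to 8 other settings that gave each of them a value, the 12 called pairs kept their direction except Itgb7 in germinal center B-like cells, which was 0.0715 when classes came from marker counts per cell; the cause was not tested. Pairs higher in the FMD library numbered 1 in the chosen setting, 3 at Leiden resolution 0.5, 2 without doublet removal, 2 after thinning every cell to 1000 UMIs, 0 with homing genes kept for clustering, 7 with classes from marker counts per cell and 6 at a minimum of 20 UMIs. Pairs lower numbered 11, with 5 after thinning (31 pairs left to call on) and 17 at a minimum of 20 UMIs, and 8 to 15 in the other settings. The class with the highest level was the same for 7 to 10 of the 10 members, and for 5 (ad libitum) and 6 (FMD) with classes from marker counts per cell. Of the single ratios, thinning moved 30 of 60 outside their counting interval, marker counts per cell 25 of 85 with 1 reversed, and the other 6 alternatives 0 to 3 each. Of the 25 described shares of cells, 14 moved at 2000 UMIs per cell. Without thinning all 25 moved, a setting in which depth itself raises detection. Counting error limits the ratios: the interval crossed 0 in 59 of 86 pairs. With 1 library per diet the spread between mice is unknown.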
